A study of Arabidopsis thaliana with 30 samples.

Results

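BHLH101 and AT1G47400 are 2 Arabidopsis thaliana genes of the iron deficiency response, each read by 1 probe set on the ATH1 array. They are 2 of the 13356 genes that the annotation held here matches to a probe set of their own. They were chosen by their measured levels before high light, which in the flu mutant were among the lowest relative to wild type, so those values are described here and not tested. BHLH101 is AT5G04150. AT1G47400 carries no gene name in that annotation, so no molecular role is given for it.

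The 30 arrays cover 5 lines at 2 times with 3 biological replicates in each of the 10 groups. The lines are flu, a mutant of FLU; mbs1-1, a mutant of MBS1; RNAi-MBS2/mbs1-1, in which MBS2 is knocked down by RNA interference in the mbs1-1 background; 35S:MBS1, which overexpresses MBS1 from the constitutive 35S promoter; and the wild type (WT). All 5 are in the Col-0 accession. Seedlings were 12 days old, grew on plates of half-strength medium with 1% sucrose, were adapted for 7 days to continuous light of 10 µE m−2 s−1, and were collected without their roots. The 3 h groups had 3 h of high light (1000 µE m−2 s−1) after 3 h of darkness, and the 0 h groups had no high light. Whether the 0 h seedlings had been through the dark period is not given in the sources used here. A difference between 3 h and 0 h thus cannot tell high light from the dark period or the time passed. FLU, MBS1 and MBS2 have no probe set matched to them alone, so the labels could not be checked through the altered genes.

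Iron-deficient plants switch on a set of bHLH transcription factors that raise the uptake and redistribution of iron. BHLH101 belongs to the subgroup Ib of this family, with bHLH38, bHLH39 and BHLH100, whose transcripts build up in roots and leaves when iron is short, and which act in roots together with the factor FIT. Upstream of them stand the subgroup IVc factors bHLH34, bHLH104, ILR3 and bHLH115 and their partner bHLH121, while POPEYE (PYE) is a bHLH repressor of iron genes that is itself induced by iron shortage. FLU restrains the synthesis of chlorophyll precursors, and flu mutants accumulate protochlorophyllide in darkness, which releases singlet oxygen in light. MBS1 is a zinc finger protein of singlet oxygen signalling.

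Levels are log2 signals, so a difference of 1 is a factor of 2, and levels of different probe sets are not compared. Array means lay between 6.70 and 6.77 for 28 arrays, while mbs1-1 3 h replicate 1 (6.96) and WT 0 h replicate 1 (6.88) were brighter. The leaf marker RCA, the activase of Rubisco, read 11.9 to 12.9 on all arrays. The root hair expansin genes EXPA7 and EXPA18 read 2.63 to 3.32 and 4.21 to 5.98, and the root gene SHT read 3.4 to 4.9. PYK10, a glucosidase of roots and hypocotyls, read 11.04 to 12.49. A bulk sample cannot tell fewer cells of a type from less RNA per cell.

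At 0 h BHLH101 was lower in flu than in every other line. It read 5.23, 5.20 and 5.31 in flu, against 5.74, 8.20 and 5.99 in mbs1-1. RNAi-MBS2/mbs1-1 had 7.40, 7.48 and 8.44, 35S:MBS1 had 7.96, 8.08 and 6.13, and WT had 6.59, 8.39 and 7.67. The highest flu array lay 0.44 below the lowest of the 12 other arrays, and those 12 were widely spread while the 3 flu arrays were nearly equal. The SD was 0.06 in flu and 0.58 to 1.35 in the other 4 lines.

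The log2 difference of flu from mbs1-1 was -1.40, from RNAi-MBS2/mbs1-1 -2.53, from 35S:MBS1 -2.15 and from WT -2.30 (SE 0.49 each), or 2.64 to 5.78-fold lower. These 4 differences share the flu arrays, and the choice of the gene used them. The one from mbs1-1 rests on a single array of that line: without mbs1-1 0 h replicate 2 it was -0.62, since the other 2 mbs1-1 arrays lay close to flu.

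AT1G47400 was also lower in flu than in every other line at 0 h, with the opposite pattern of spread. It read 8.94, 9.76 and 8.09 in flu, against 10.83, 10.84 and 11.03 in mbs1-1. RNAi-MBS2/mbs1-1 had 10.63, 11.43 and 11.37, 35S:MBS1 had 10.62, 11.29 and 10.38, and WT had 11.02, 11.08 and 10.84. The highest flu array was 0.62 below the lowest of the 12 others. Here the flu arrays varied most (SD 0.83), and the other lines had SDs of 0.11 to 0.47. The log2 difference of flu from mbs1-1 was -1.97, from RNAi-MBS2/mbs1-1 -2.21, from 35S:MBS1 -1.83 and from WT -2.05 (SE 0.37 each), or 3.56 to 4.63-fold lower.

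Of all 22746 probe sets, 0.958% had their 3 flu arrays below all 12 arrays of the other lines at 0 h, and both genes are among them by the way they were chosen. In all, 5 single-gene probe sets had been set apart as the lowest in flu against WT at 0 h, with log2 differences of -3.14 for AT2G14230, -2.39 for M17, -2.30 for BHLH101, -2.09 for AT5G20790 and -2.05 for AT1G47400. Just outside stood CYP71B36, a cytochrome P450 gene, at -1.67.

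**Figure D1:**
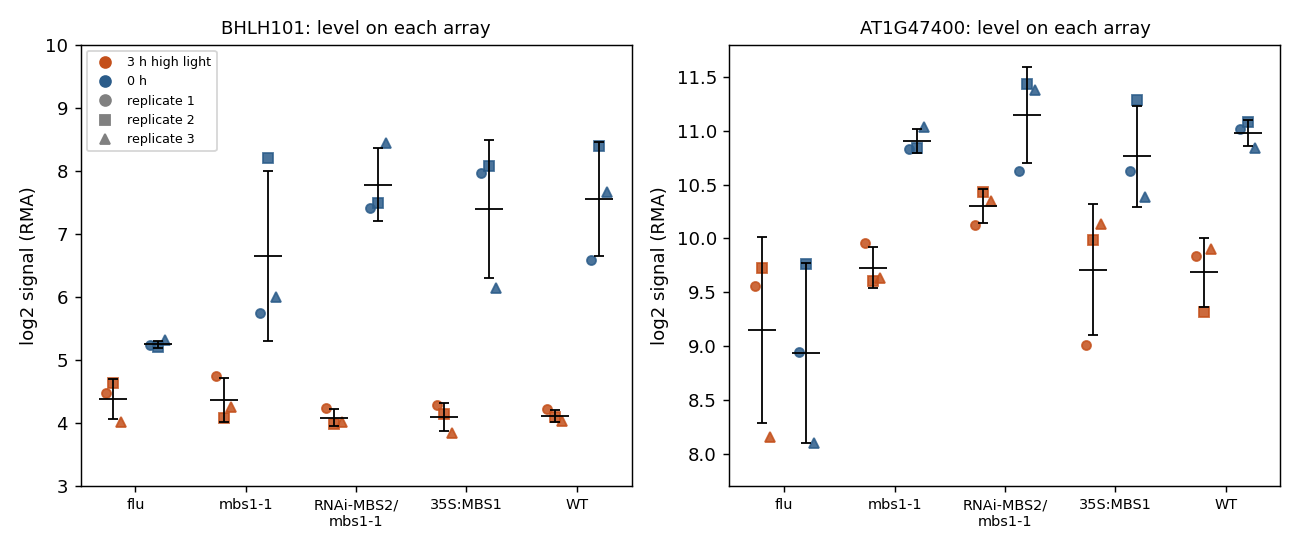
Level of BHLH101 (left) and AT1G47400 (right) on each array, in log2 RMA signal, for the 5 lines, with 3 h of high light left of 0 h. Symbols are the 3 replicates and black bars the mean ± SD. For BHLH101 all 15 arrays at 3 h lie at or below 4.75 and all 15 at 0 h at or above 5.20, while for AT1G47400 the flu arrays overlap between the times.

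Before high light the 4 lines without the flu mutation did not separate from each other. BHLH101 averaged 6.64 ± 1.35 in mbs1-1, 7.39 ± 1.09 in 35S:MBS1, 7.77 ± 0.58 in RNAi-MBS2/mbs1-1 and 7.55 ± 0.91 in WT (SD, n = 3 each), and their arrays overlapped. AT1G47400 averaged 10.90 ± 0.11, 10.76 ± 0.47, 11.14 ± 0.45 and 10.98 ± 0.12 in the same order of lines. As a description, since the choice also drew on the 0 h arrays of these lines, RNAi-MBS2/mbs1-1 differed from mbs1-1 by 1.13 ± 0.49 for BHLH101 and by 0.24 ± 0.37 for AT1G47400 (SE). Leaving out 1 array moved both values. The BHLH101 difference was 1.91 without mbs1-1 0 h replicate 2 and 0.68 without replicate 1, and the AT1G47400 difference was 0.50 without RNAi-MBS2/mbs1-1 0 h replicate 1 and 0.10 without replicate 2. In that comparison 0.0044% of all probe sets were called at an adjusted p under 0.05.

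After 3 h of high light BHLH101 stood at a similarly low level in all 5 lines. It read 4.46, 4.64 and 4.02 in flu, against 4.75, 4.08 and 4.25 in mbs1-1. RNAi-MBS2/mbs1-1 had 4.23, 3.99 and 4.02, 35S:MBS1 had 4.28, 4.15 and 3.84, and WT had 4.22, 4.09 and 4.03. The highest of the 15 arrays at 3 h (4.75) was below the lowest of the 15 at 0 h (5.20), a pattern that 10.8% of all probe sets showed.

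The differences of both genes between 3 h and 0 h are given as descriptions in every line, because the choice set flu against the 0 h arrays of all 4 other lines. For BHLH101 the difference was -2.28 in mbs1-1 (4.87-fold), -3.30 in 35S:MBS1 (9.88-fold) and -3.69 in RNAi-MBS2/mbs1-1 (12.9-fold), each with an SE of 0.49. Without mbs1-1 0 h replicate 2, the highest array of that group, the value in mbs1-1 was -1.51. Over all probe sets, 18.8% were called lower in mbs1-1, 25% in 35S:MBS1 and 24.5% in RNAi-MBS2/mbs1-1, and 15.2% were called lower in all 3 lines.

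The difference between 3 h and 0 h was -0.87 in flu and -3.43 in WT (SE 0.49 each). Of all probe sets, 25.1% were called lower in flu and 24.4% in WT. The level averaged 4.37 ± 0.32 at 3 h and 5.24 ± 0.06 at 0 h in flu, and 4.11 ± 0.10 at 3 h and 7.55 ± 0.91 at 0 h in WT (SD, n = 3 each), so the 2 lines lay apart at 0 h and together at 3 h. The difference of the 2 responses, flu minus WT, was 2.56 ± 0.70 (SE) and was not tested, because the choice used both 0 h groups. The BHLH101 levels at 3 h, 3.84 to 4.75, lie near the lower quartile of their arrays (4.0 to 4.5). Detection calls were not used, so whether the 3 h levels stand above background was not tested.

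The differences of AT1G47400 over time were smaller, and its level at 3 h stayed far above the lower quartile of the arrays. After high light it read 9.55, 9.73 and 8.15 in flu, against 9.95, 9.61 and 9.63 in mbs1-1. RNAi-MBS2/mbs1-1 had 10.12, 10.43 and 10.34, 35S:MBS1 had 9.01, 9.98 and 10.13, and WT had 9.83, 9.32 and 9.90. Except in flu, the 3 arrays of each line at 3 h lay below its 3 arrays at 0 h, a pattern that 22.1% of all probe sets showed in mbs1-1, 30.6% in 35S:MBS1, 30.7% in RNAi-MBS2/mbs1-1 and 30.4% in WT, and 28% in flu.

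The difference between 3 h and 0 h was -1.17 in mbs1-1 (2.25-fold), -1.06 in 35S:MBS1 (2.08-fold) and -0.85 in RNAi-MBS2/mbs1-1, each with an SE of 0.37. In 35S:MBS1 it was -0.79 without 0 h replicate 2 and -0.71 without 3 h replicate 1. In RNAi-MBS2/mbs1-1 it was -1.11 without 0 h replicate 1.

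Flu differed by 0.21 between 3 h and 0 h, and WT by -1.30 (SE 0.37 each), with flu arrays that overlapped between the times. Without flu 0 h replicate 3 the flu value was -0.21, and without flu 3 h replicate 2 it was -0.08, so no direction can be given for flu. The difference of the responses, flu minus WT, was 1.51 ± 0.52 (SE), and 8.41% of all probe sets were called in that difference. The response of RNAi-MBS2/mbs1-1 minus that of mbs1-1 was -1.41 ± 0.70 for BHLH101 and 0.33 ± 0.52 for AT1G47400 (SE), which were not tested for the same reason.

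Other measures moved with time as well. Of the 4 measured root markers, EXPA18 fell in flu (-0.74), 35S:MBS1 (-0.70), RNAi-MBS2/mbs1-1 (-0.75) and mbs1-1 (-0.55), and PYK10 fell in mbs1-1 (-0.87), while EXPA7 and SHT were not called in any line. The leaf marker RCA fell in flu (-0.68, limma adjusted p 5.2e-06) and was not called over time in the other 4 lines (-0.19 to -0.08), a difference between lines that was not tested. The log2 sum of the 4 root markers ranged over the lines from 11.2 to 11.9 at 3 h and from 11.1 to 12.5 at 0 h. For the actin controls, the signal at the 3′ end minus that at the 5′ end, a measure of RNA integrity and labelling, was 6.17 to 7.02 at 3 h and 6.04 to 6.78 at 0 h. For the GAPDH controls it was 3.14 to 3.79 at 3 h and 3.30 to 3.98 at 0 h. At 0 h the actin median was 6.16 in flu and 6.42 in the 4 other lines. The GAPDH median was 3.80 in flu and 3.56 in the 4 other lines, and the ranges overlapped for both controls. The part of these markers and controls in the differences of BHLH101 and AT1G47400, over time or between lines, was not tested. Between flu and WT at 0 h none of the 4 root markers was called, and their differences ran from -0.18 to 0.15. Only 0.506% of all probe sets were called in that comparison. The log2 sum of the root markers at 0 h was 11.63 to 12.51 in flu and 11.69 to 12.07 in WT.

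**Figure D2:**
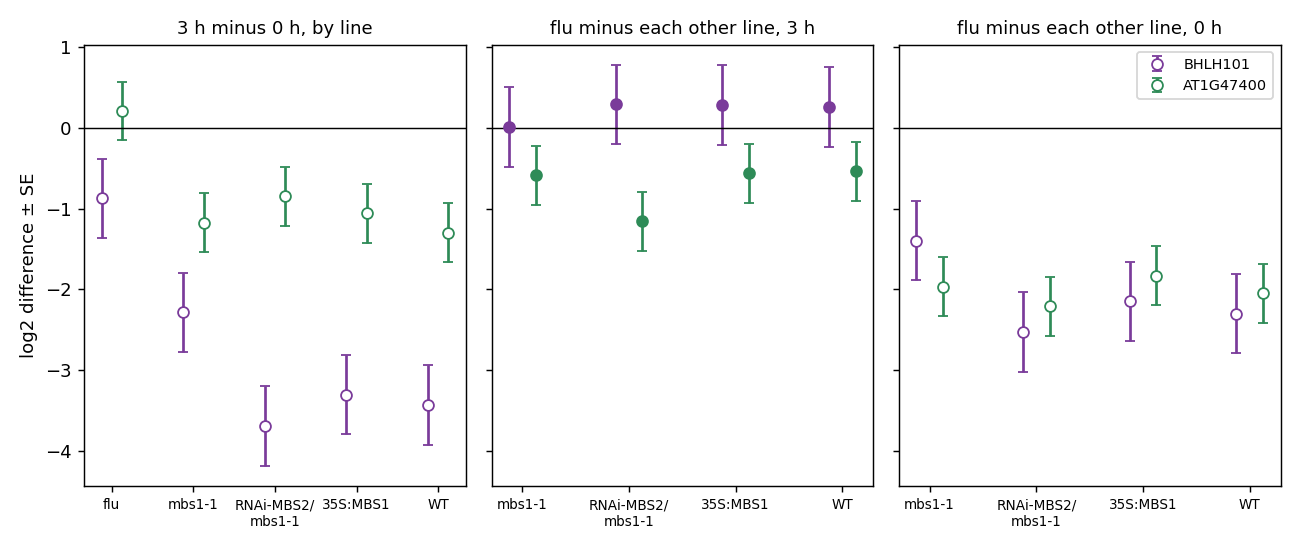
Log2 differences ± SE of BHLH101 (purple) and AT1G47400 (green): 3 h minus 0 h in each line (left), and flu minus each other line at 3 h (middle) and at 0 h (right). Filled points (middle) were tested and open points (left and right) are descriptions. BHLH101 lies at -2.28 or lower in every line but flu at the left and at 0.29 or less in the middle panel, while AT1G47400 stays between -1.15 and -0.54 in the middle panel.

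After 3 h of high light the mean of BHLH101 was no longer lowest in flu, because the other lines read low as well. It was 4.37 ± 0.32 in flu, 4.36 ± 0.35 in mbs1-1, 4.09 ± 0.22 in 35S:MBS1, 4.08 ± 0.13 in RNAi-MBS2/mbs1-1 and 4.11 ± 0.10 in WT (SD, n = 3 each). These levels lie near the lower quartile of the arrays (4.0 to 4.5). Whether a difference between lines can show at such levels was not tested. The difference of flu from WT was 0.26 (95% interval -0.75 to 1.27; limma adjusted p 0.803). An interval of this width does not show equal levels. The BHLH101 intervals at 3 h rest on a variance shared by all 10 groups. The SDs of those groups were 0.10 to 0.35 at 3 h and 0.06 to 1.35 at 0 h, so the width also holds the spread at 0 h. In the same comparison 18.3% of all probe sets were called. The other 7 comparisons between lines at 3 h also gave no call for BHLH101, with differences of -0.28 to 0.29.

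AT1G47400 kept a lower mean in flu at 3 h, but against 3 of the 4 lines the difference did not pass the test. Its mean was 9.14 ± 0.86 in flu, 9.73 ± 0.19 in mbs1-1, 9.71 ± 0.61 in 35S:MBS1, 10.30 ± 0.16 in RNAi-MBS2/mbs1-1 and 9.68 ± 0.32 in WT. Flu differed by -0.59 from mbs1-1 (-1.34 to 0.17; limma adjusted p 0.256), by -0.56 from 35S:MBS1 (-1.32 to 0.19; limma adjusted p 0.321) and by -0.54 from WT (-1.29 to 0.21; limma adjusted p 0.361). Called in either direction were 24.3% of all probe sets against mbs1-1 and 20.9% against 35S:MBS1.

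Against RNAi-MBS2/mbs1-1 the flu level was lower by the test, at -1.15 (2.22-fold; -1.91 to -0.40; limma adjusted p 0.0272), in a comparison where 9.46% of all probe sets were called lower. That call was lost without flu 3 h replicate 3, the lowest array (-0.66, adjusted p 0.267), without RNAi-MBS2/mbs1-1 3 h replicate 2 (adjusted p 0.0757) or replicate 3 (adjusted p 0.081), and when the model held the compared arrays alone (adjusted p 0.0684). Without flu 3 h replicate 3 flu differed by -0.09 from mbs1-1, by -0.07 from 35S:MBS1 and by -0.04 from WT. Neither gene had its 3 flu arrays at 3 h below all 12 others, which 10.5% of all probe sets had. The leaf marker RCA was lower in flu than in WT at 3 h (-0.62, limma adjusted p 0.000114), and its part in the flu levels was not tested.

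The 3 lines altered in MBS1 or MBS2 gave no called difference from WT at 3 h for either gene. BHLH101 differed from WT by 0.25 in mbs1-1 (95% interval -0.76 to 1.26), by -0.03 in RNAi-MBS2/mbs1-1 (-1.04 to 0.98) and by -0.03 in 35S:MBS1 (-1.04 to 0.99). AT1G47400 differed by 0.05 in mbs1-1 (-0.71 to 0.80), by 0.61 in RNAi-MBS2/mbs1-1 (-0.14 to 1.37) and by 0.03 in 35S:MBS1 (-0.73 to 0.78). Few probe sets were called at all in these comparisons, 0.435%, 0.22% and 0.0176% of all in the same order of lines. In RNAi-MBS2/mbs1-1 the 3 arrays of AT1G47400 lay above those of WT and of mbs1-1 (0.57 higher than mbs1-1, limma adjusted p 0.6), with an adjusted p of 0.939 against WT. Of all probe sets, 5.85% lay above the WT arrays in this way and 2.06% above the mbs1-1 arrays, where 0.00879% were called against mbs1-1.

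Ordered by mean, BHLH101 ran from RNAi-MBS2/mbs1-1, WT, 35S:MBS1, mbs1-1 and flu at 0 h to flu, mbs1-1, WT, 35S:MBS1 and RNAi-MBS2/mbs1-1 at 3 h. Between neighbours in that order the arrays separated only on both sides of flu at 0 h, which stood alone between the other 0 h groups and the 3 h groups. AT1G47400 ran from RNAi-MBS2/mbs1-1, WT, mbs1-1 and 35S:MBS1 at 0 h through RNAi-MBS2/mbs1-1, mbs1-1, 35S:MBS1, WT and flu at 3 h to flu at 0 h. There the only neighbours without overlap were RNAi-MBS2/mbs1-1 and mbs1-1 at 3 h. Flu at 0 h thus held the lowest mean of AT1G47400 but not of BHLH101.

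**Figure D3:**
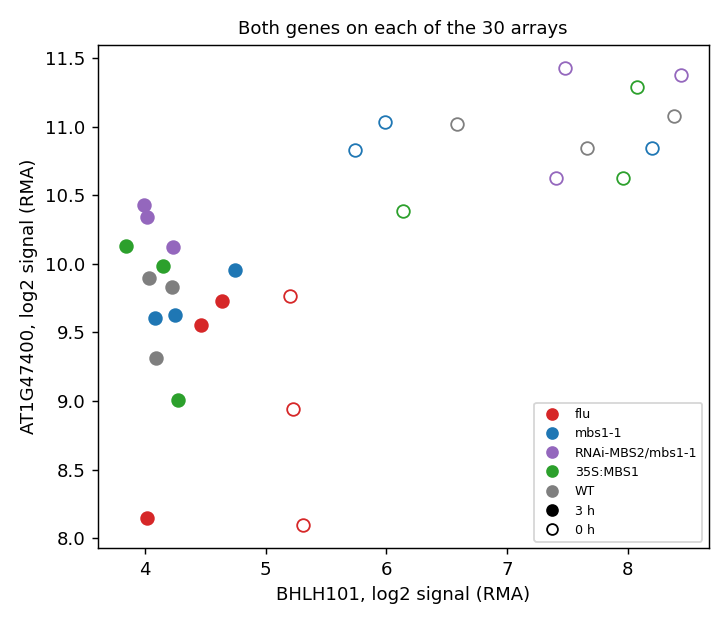
BHLH101 (horizontal) against AT1G47400 (vertical) on each of the 30 arrays, in log2 RMA signal, coloured by line, with filled points for 3 h and open points for 0 h. The 12 arrays of the other lines at 0 h lie at the upper right, the 3 h arrays at the left, and the flu 0 h arrays low between them, at 5.20 to 5.31 for BHLH101 and 8.09 to 9.76 for AT1G47400.

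The 2 genes followed each other between groups and little within them. Pearson's r was 0.68 over the 30 arrays, which fall apart by time, and 0.79 over the 10 group means. It was -0.03 over the 15 arrays at 3 h and -0.25 over the 12 arrays at 3 h without flu. At 0 h it was 0.70 over 15 arrays and 0.37 over the 12 arrays without flu. Over the deviations of the 30 arrays from their group means it was 0.19. All these values are descriptions over arrays that share lines and times. Both genes were chosen as low in flu at 0 h, so r over groups or arrays that include flu at 0 h was partly set by the choice. Over all arrays but those of flu at 0 h, r was 0.77, higher than the 0.68 over the 30.

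The genes whose pattern over the 30 arrays was most like that of BHLH101, among 13512 other single-gene probe sets, were AT5G05250 (Pearson's r 0.94), AT1G33130 (0.91), PYE (0.91), AT3G56360 (0.90) and AT4G19865 (0.89). Without the 3 flu 0 h arrays, r was 0.95, 0.92, 0.91, 0.90 and 0.93 in the same order. The other arrays had also been used for the ranking and fall apart by time, so these values are no separate check. AT5G05250 averaged 6.78 ± 0.41 in flu and 7.22 ± 0.22 in WT at 3 h, and 8.14 ± 0.60 in flu and 9.68 ± 0.20 in WT at 0 h. Its difference between flu and WT at 0 h was -1.54. The ranking used these arrays, so that value is no independent reading of the BHLH101 pattern. AT4G19865 differed by -1.05 between 3 h and 0 h in mbs1-1, against -2.51 for AT5G05250, and by -0.23 between flu and WT at 0 h. AT1G33130 is annotated as a pseudogene in the TAIR10.1 gene table, and its probe set is of the kind whose probes can match several transcripts. AT1G47400 ranked at place 2059 of this list.

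Nearest to AT1G47400 were AT5G26360 (0.86), AT2G14230 (0.83), AT2G30760 (0.83), M17 (0.78) and AT3G16670 (0.77), with r of 0.86, 0.82, 0.85, 0.79 and 0.79 without flu at 0 h. BHLH101 ranked at place 37. AT5G26360 had small differences, -0.29 between flu and WT at 0 h and -0.19 between 3 h and 0 h in WT. AT2G14230, a pseudogene in TAIR10.1, differed by -3.14 between flu and WT at 0 h and by -2.68 between 3 h and 0 h in WT. AT2G30760 overlaps in that table with AT2G30766, another gene of the iron list, which has no probe set of its own here, and which of them the probe set reads was not tested. AT1G47395, a further listed gene, lies next to AT1G47400 and has no probe set of its own either, and whether its transcripts add to the AT1G47400 signal was not tested.

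Around these 2 genes, 73 genes of iron handling were listed, and 13 of them had a probe set of their own. The measured ones were 10 of 20 regulators of the iron deficiency response and 3 of 10 genes of iron uptake at the root surface. None of the 25 genes of transport and chelation, 8 of storage or 10 of iron use in the chloroplast was measured, so neither bHLH38, bHLH39 and BHLH100, the relatives of BHLH101, nor the ferritins can be described. Apart from BHLH101 and AT1G47400, 11 genes remain.

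At 0 h none of the 11 was called between flu and WT in the limma fit (115 of 22746 probe sets were called, 0.506%, and 2143 had an unadjusted p under 0.05). Their median difference was -0.10, against -0.05 over all probe sets. PYE had the lowest value among them, -0.56. Its arrays read 7.18, 7.34 and 7.08 in flu, against 7.92, 7.61 and 7.75 in WT, and the groups did not overlap (7.97% of all probe sets lay below WT in this way). With an adjusted p of 0.111 it was not called against WT, nor against mbs1-1 (-0.54, adjusted p 0.0639) or 35S:MBS1 (-0.38, adjusted p 0.449). It was called lower in flu than in RNAi-MBS2/mbs1-1 (-0.69, limma adjusted p 0.0189), where 2881 of all probe sets had an unadjusted p under 0.05. The highest PYE array of flu at 0 h (7.34) lay below the lowest of the 12 others (7.48, in 35S:MBS1). Of all probe sets, 0.958% had this pattern.

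PYE, the repressor induced by iron shortage, was lower at 3 h than at 0 h in 4 lines by the test. The differences were -0.78 in mbs1-1, -0.88 in 35S:MBS1, -1.07 in RNAi-MBS2/mbs1-1 and -0.93 in WT (SE 0.15 each), with limma adjusted p-values of 1.37e-06 to 9.77e-05. In flu it read 7.20, 7.02 and 6.63 at 3 h, against 7.18, 7.34 and 7.08 at 0 h. That difference, -0.25, did not pass the test (limma adjusted p 0.174). The response of flu differed from that of WT by 0.68 ± 0.21 (SE; limma adjusted p 0.0447). PYE was also among the 5 genes most like BHLH101, and its values are no independent reading of that pattern.

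**Figure D4:**
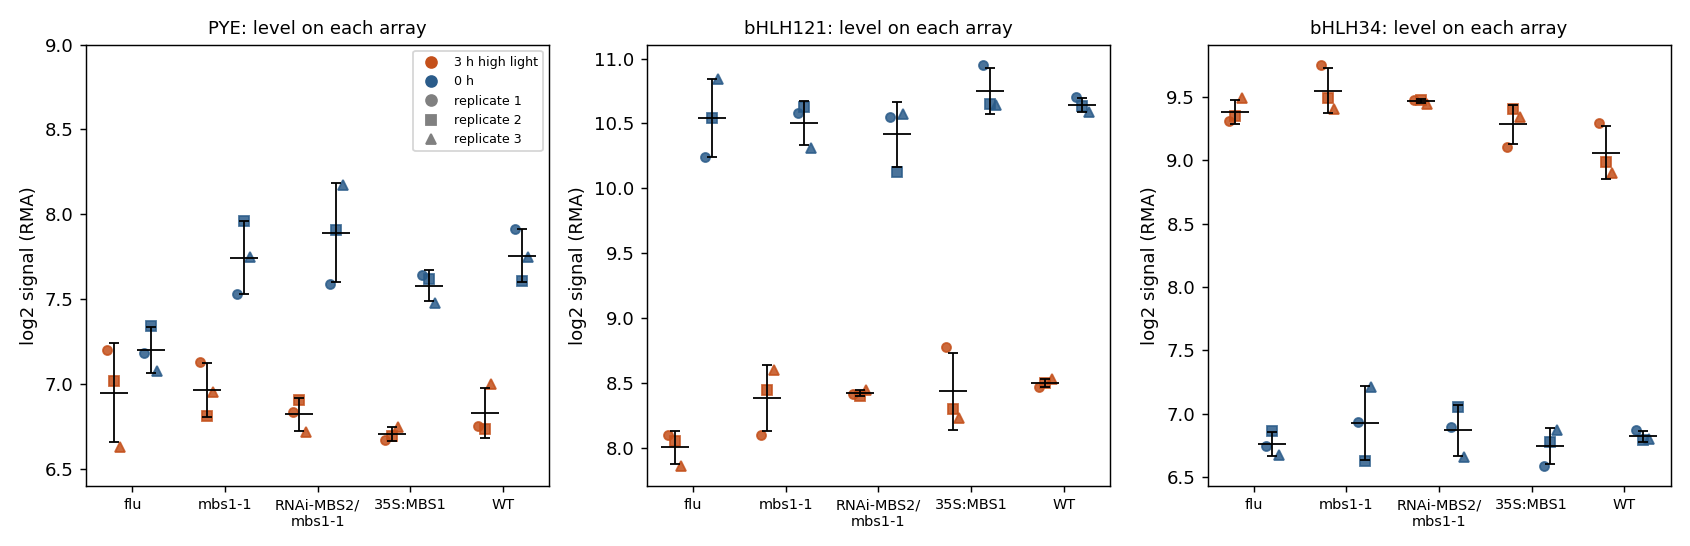
Level of PYE, bHLH121 and bHLH34 on each array, in log2 RMA signal, with 3 h of high light left of 0 h in each line. Symbols are the 3 replicates and black bars the mean ± SD. PYE is lower at 3 h in every line but flu, where the times overlap, bHLH121 drops in all lines, with differences of -2.54 to -1.996, and bHLH34 rises in all lines by 2.24 to 2.63.

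The regulators upstream of BHLH101 split. The transcript of bHLH34, a subgroup IVc activator, rose in all 5 lines, by 2.62 in flu, 2.54 in 35S:MBS1, 2.60 in RNAi-MBS2/mbs1-1, 2.63 in mbs1-1 and 2.24 in WT (SE 0.14 each), with limma adjusted p-values of 9.25e-13 or less. In WT it read 9.30, 8.98 and 8.90 at 3 h, against 6.87, 6.79 and 6.80 at 0 h. The transcript of bHLH121, the partner of these activators, fell in all 5 lines, with differences of -2.54 in flu, -2.31 in 35S:MBS1, -1.996 in RNAi-MBS2/mbs1-1, -2.12 in mbs1-1 and -2.14 in WT (SE 0.16 each), with limma adjusted p-values of 1.1e-10 or less. In WT it read 8.466, 8.502 and 8.530 at 3 h, against 10.7, 10.6 and 10.6 at 0 h. The arrays of the 2 times were far apart in every line for both genes.

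At 3 h bHLH121 was the one listed gene of the 11 called between flu and WT, where 18.3% of all probe sets were called. It read 8.10, 8.05 and 7.86 in flu, against 8.466, 8.502 and 8.530 in WT, a difference of -0.50 (limma adjusted p 0.0297). Without flu 3 h replicate 3, WT 3 h replicate 2 or WT 3 h replicate 3 no listed gene was called there. The other activators changed less. ILR3 fell in flu (-0.41, limma adjusted p 0.00358) and in WT (-0.47, limma adjusted p 0.0012), where 25.1% and 24.4% of all probe sets were called lower. It was not called over time in mbs1-1 (-0.17), 35S:MBS1 (-0.18) or RNAi-MBS2/mbs1-1 (-0.19). The gene bHLH104 was called in no comparison, with differences of -0.08 to 0.02 over time. At 3 h bHLH115 was lower in flu than in mbs1-1 (-0.38, limma adjusted p 0.0239) and RNAi-MBS2/mbs1-1 (-0.35, limma adjusted p 0.0452). Of all probe sets, 24.3% were called in either direction against mbs1-1 and 9.46% were called lower against RNAi-MBS2/mbs1-1. AT1G74770 and AT1G18910, which have no name in the annotation, were called in no comparison.

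Of the 3 measured uptake genes, BGLU42, a beta-glucosidase that acts on coumarin glucosides, was higher at 3 h than at 0 h in every line. The differences were 0.77 in flu, 1.06 in 35S:MBS1, 1.16 in RNAi-MBS2/mbs1-1, 1.29 in mbs1-1 and 1.28 in WT (limma adjusted p-values of 8.64e-05 or less). AT3G13610, the feruloyl-CoA hydroxylase F6′H1 of coumarin synthesis, was not called over time in any line. At 3 h it was higher in flu than in mbs1-1 (1.45, limma adjusted p 0.0421) and 35S:MBS1 (1.60, limma adjusted p 0.0279). Of all probe sets, 24.3% and 20.9% were called in these comparisons. The AT3G13610 mean at 3 h was 4.83 in flu, 3.38 in mbs1-1 and 3.23 in 35S:MBS1. The mbs1-1 and 35S:MBS1 means lie below the lower quartile of the arrays (4.0 to 4.5). At 0 h its SD reached 1.33, in flu. AT3G12900 was called in no comparison.

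Counted over the 11 genes, 2 rose and 2 fell with time in each of the 4 altered lines, and 2 rose and 3 fell in WT. Of all probe sets, 48.1% were called with time in flu, 44.6% in mbs1-1, 47% in 35S:MBS1, 45.6% in RNAi-MBS2/mbs1-1 and 45.5% in WT, so the list did not exceed the share of all probe sets. The list medians were -0.05 in flu, 0.04 in mbs1-1, -0.01 in 35S:MBS1, 0.01 in RNAi-MBS2/mbs1-1 and -0.18 in WT, beside -0.05, 0.10, -0.08, -0.10 and -0.07 over all probe sets. By these counts the list had no common direction. The counts include genes with low signals. Group means were 2.87 to 3.11 for AT1G74770 and 3.07 to 3.50 for AT3G12900, below the lower quartile of the arrays (4.0 to 4.5). For AT3G13610 they were 3.09 to 4.83. Whether these levels stand above background was not tested, which limits the counts and medians.

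**Figure D5:**
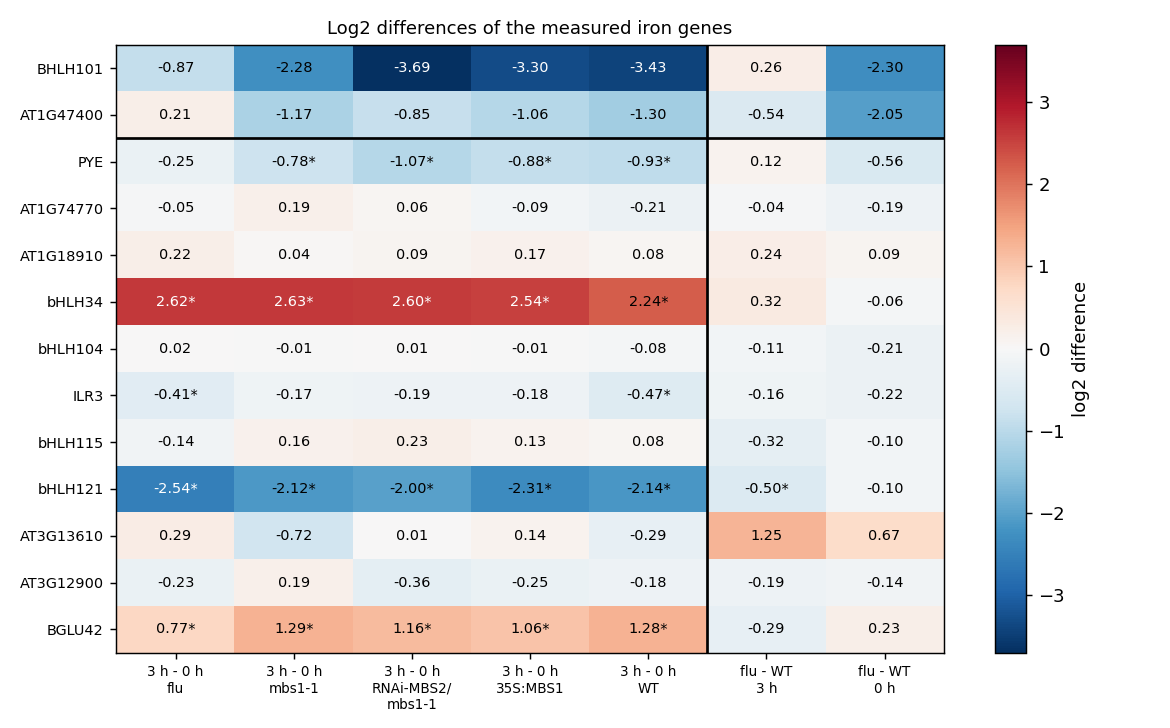
Log2 differences of the 13 measured iron genes: 3 h minus 0 h in each of the 5 lines and flu minus WT at 3 h and at 0 h, with red for higher and blue for lower values. Asterisks mark an adjusted p under 0.05 for the 11 genes below the line, and BHLH101 and AT1G47400 carry no mark. At the right, BHLH101 (-2.30) and AT1G47400 (-2.05) lie below the 11 others, of which the lowest is PYE at -0.56. The 2 genes were chosen by this difference, so their place there was set in advance.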

How the data were processed

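The deposited values are log2 signals. The authors made them with RMA and the package affy, per the submitters' processing notes, and the sources used here give neither versions nor whether the 30 arrays were normalized together. Per the labels' protocols, DNase-treated total RNA gave cDNA that was labelled with biotin. Groups followed the labels, and no 2 arrays were identical.

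Of 22810 probe sets, 64 controls were left out and 22746 tested. A single gene was matched to 13513 of them, more than 1 to 503, and 8730 had no match. Names follow the TAIR10.1 gene table, and a gene with several probe sets is represented by the brightest.

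In limma 3.58.1 (R 4.3.3), 1 mean per group was estimated over the 30 arrays, with moderated variances, Benjamini-Hochberg adjustment over the 22746 probe sets and calls at an adjusted p under 0.05. The model was tested on simulated data. Of 21 comparisons, 8, all at 3 h, were tested for BHLH101 and AT1G47400 and 13 only described, because the choice used their 0 h arrays. For 4 of the 13, the difference over time in 35S:MBS1, mbs1-1 and RNAi-MBS2/mbs1-1 and that of RNAi-MBS2/mbs1-1 from mbs1-1 at 0 h, a test had been planned. The number of arrays limits the precision. Named are these genes, all measured regulators, called genes of the other lists, the 5 most like genes by Pearson's r, and the probe sets around the limit of the choice. The 2 genes and all lists were chosen with earlier results of these data known. Alternatives were a fit on the compared arrays only, a replicate block, a filter on dim probe sets (mean of at least 5), quantile normalization, median centring, another variance prior, single-gene probe sets only, and arrays left out. Plots used Python 3.11.15 and matplotlib 3.10.9.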

Additional observations from a re-analysis of the deposited data

Results flagged for a closer look

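The response of PYE, 3 h minus 0 h, differed between flu and WT by 0.68 ± 0.21 on the log2 scale (SE, limma adjusted p 0.0447, 3 arrays per group). The difference between 3 h and 0 h was -0.25 in flu and -0.93 in WT. In this difference of responses, 8.41% of all probe sets were called.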

How the results depend on the processing

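BHLH101 and AT1G47400 were lower at 3 h than at 0 h in mbs1-1, 35S:MBS1 and RNAi-MBS2/mbs1-1 in each of the 14 alternatives run per comparison, as a description. The arrays at 3 h and 0 h did not overlap in these lines, so leaving out single arrays could not change the sign. The replicate numbers do not pair the arrays: deviations of arrays with the same number had a median correlation of -0.01 over 135 pairs, and with different numbers -0.01 over 270. With a replicate block the AT1G47400 difference of flu from RNAi-MBS2/mbs1-1 at 3 h was -1.15 (adjusted p 0.0233), and no call changed.

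When the model held the compared arrays alone, AT1G47400 was not called between flu and RNAi-MBS2/mbs1-1 at 3 h (-1.15, adjusted p 0.0684). Listed genes called between flu and WT at 3 h were 2, not 1, on the compared arrays, with the filter at a mean of 5 and with the trended and robust prior. The causes were not tested. Small uncalled differences changed sign. For BHLH101 at 3 h, RNAi-MBS2/mbs1-1 minus WT was 0.0423 after quantile normalization and 0.0062 after median centring, and 35S:MBS1 minus WT was 0.0389 and 0.0109. For AT1G47400 at 3 h, mbs1-1 minus WT was -0.0001 and -0.0008 in these settings and -0.0654 without both brighter arrays, which gave -0.25 for BHLH101 in RNAi-MBS2/mbs1-1 minus WT at 0 h.

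Leaving out 1 array at a time gave, for BHLH101, -0.11 to 0.0207 in RNAi-MBS2/mbs1-1 minus WT at 3 h, -0.12 to 0.10 in 35S:MBS1 minus WT at 3 h, -0.13 to 0.21 in flu minus mbs1-1 at 3 h, -0.25 to 0.65 in RNAi-MBS2/mbs1-1 minus WT at 0 h and -0.63 to 0.47 in 35S:MBS1 minus WT at 0 h. For AT1G47400 it gave -0.14 to 0.15 in mbs1-1 minus WT and -0.19 to 0.37 in 35S:MBS1 minus WT at 3 h, -1.44 to -0.66 in flu minus RNAi-MBS2/mbs1-1 at 3 h, and over time -1.11 to -0.70 in RNAi-MBS2/mbs1-1, -1.27 to -0.71 in 35S:MBS1 and -0.21 to 0.71 in flu. The count of listed genes called between flu and WT at 3 h ran from 0 to 2. The lower level of both genes in flu at 0 h kept its sign in all 14 alternatives against each of the 4 lines. Both genes were chosen as low there, and their flu arrays did not overlap those of the other lines. Leaving out 1 array could therefore not reverse the sign.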
